A study of Mus musculus with 6 samples.

Results

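The 4 fibroblast growth factor (FGF) receptor genes Fgfr1, Fgfr2, Fgfr3 and Fgfr4 and the 5 ligand genes Fgf1, Fgf2, Fgf7, Fgf10 and Fgf18 were described in mandibular-derived and femur-derived monocytes. They were taken by gene name from the count table with all 6 libraries, and are 9 of its 57010 genes. RNA was sequenced in bulk from monocytes of C57BL/6 mice aged 1 year, in 3 libraries from marrow of the mandible (S16, S19 and S23) and 3 from marrow of the femur (S13, S15 and S18). No treatment, transgene or deletion is named for any sample, and all 6 were enriched with a magnetic monocyte isolation kit. The study's methods give the substrain as C57BL/6J and name both sexes, but the sources used here do not name the sex, animal or batch of each library, so p-values measure the spread between these samples, which may be technical.

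FGFs are secreted proteins that bind receptor tyrosine kinases together with heparan sulfate chains on the cell surface, and the receptors pass the signal through adaptor proteins to the RAS and ERK kinases. In bone and teeth, FGF receptors are known from mesenchymal cells, osteoblasts, chondrocytes and epithelium, and FGF signals between epithelium and mesenchyme shape the growing tooth. FGF7 and FGF10 are made by mesenchymal cells and act on the epithelial splice form of FGFR2, whereas FGF1 binds every FGF receptor, FGF2 prefers mesenchymal splice forms and FGF18 acts in cartilage and bone.

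The 250 bases upstream of the RefSeq start are shown for Fgfr2 and for Fgf7 and Fgf10, to set a receptor called between the sites beside the pair of ligands that its epithelial form binds. RefSeq promoter windows (build GRCm38.p6) matched 7 of the 9 genes, all but Fgfr1 and Fgf1. The windows shown hold no annotated exon and lie at chr7:130266809-130267058 (minus strand) for Fgfr2, chr2:126034408-126034657 (plus strand) for Fgf7 and chr13:118714449-118714698 (plus strand) for Fgf10. They are written 5′ to 3′ in lower case, and capitals mark a GC box, the letters GGGCGG or CCGCCC.
Fgfr2: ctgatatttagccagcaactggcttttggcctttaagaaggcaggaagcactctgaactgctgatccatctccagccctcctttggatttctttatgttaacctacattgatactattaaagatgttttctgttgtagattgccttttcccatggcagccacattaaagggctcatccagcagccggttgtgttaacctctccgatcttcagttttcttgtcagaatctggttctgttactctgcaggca
Fgf7: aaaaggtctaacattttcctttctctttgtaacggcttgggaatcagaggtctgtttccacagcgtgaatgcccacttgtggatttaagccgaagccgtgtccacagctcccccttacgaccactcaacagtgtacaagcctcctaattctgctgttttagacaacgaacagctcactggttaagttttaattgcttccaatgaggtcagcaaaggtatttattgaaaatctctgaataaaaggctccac
Fgf10: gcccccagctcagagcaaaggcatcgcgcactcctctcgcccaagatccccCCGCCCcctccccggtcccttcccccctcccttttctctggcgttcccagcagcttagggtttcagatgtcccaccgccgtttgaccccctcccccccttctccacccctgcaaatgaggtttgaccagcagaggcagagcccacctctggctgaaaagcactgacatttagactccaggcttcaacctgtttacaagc
The Fgf10 window held 1 GC box and 61.2% G and C, against no GC box in the windows of Fgf7 (43.6% G and C) and Fgfr2 (44.0%). Over all 32851 RefSeq windows, 32.7% held a GC box on either strand. The Fgfr2 start in RefSeq lies 545 bases from the nearest M21 transcript start, while those of Fgf7 and Fgf10 coincide with one. Bases just after that Fgfr2 start matched no M21 transcript of the gene, and the Fgfr2 window lies inside the M21 interval of Fgfr2. None of the 3 windows held a TATA box (TATAAA or TTTATA), a Runx core (TGTGGT or ACCACA) or an AP-1 site (TGANTCA), which occurred in 12.4%, 14.0% and 6.75% of all windows. These matches describe letters in a window and were not linked to the expression values.

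Positions are given in the GRCm38 build from GENCODE M21, by Ensembl identifier. Fgfr1 (ENSMUSG00000031565) spans chr8:25513654-25575718 on the plus strand, Fgfr2 (ENSMUSG00000030849) chr7:130162451-133123350 on the minus strand, Fgfr3 (ENSMUSG00000054252) chr5:33721674-33737068 on the plus strand and Fgfr4 (ENSMUSG00000005320) chr13:55152640-55168759 on the plus strand. Among the ligands, Fgf1 lies at chr18:38838673-38929472 (minus strand), Fgf2 at chr3:37348346-37410108 (plus), Fgf7 at chr2:126034658-126091185 (plus), Fgf10 at chr13:118669791-118792115 (plus) and Fgf18 at chr11:33117430-33147400 (minus). The long Fgfr2 interval overlaps 69 other genes, but just 1 of them, Ctbp2, shares exonic bases with it (314 bases). RefSeq places the start of Fgfr2, on the minus strand, at position 130266808, so the M21 interval reaches further upstream.

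The libraries held between 15718782 and 25371474 counts on genes, and levels are given as TMM-scaled CPM, counts relative to library size. A library with no count of a gene allows up to 3 counts, which was 0.133 to 0.172 CPM. Limits of this kind cover counting error only. All 10 monocyte markers were tested and none was called between the sites, against 3.88% of all tested genes called higher and 1.3% called lower. Their log2 fold changes ran from -0.64 to 0.87, and for 3 of the 10 the interval of 1.96 SE to each side lay within 2-fold. Their summed levels were 6995 to 13873 CPM in the femur libraries and 6330 to 11230 CPM in those of the mandible. Femur library S15 stood apart, with a count on 40494 genes against 17481 to 23513 in the other 5 libraries, and 13454 genes had counts in S15 alone. Mandible library S23 had 1441 CPM of Xist, the RNA of the inactive X chromosome, against at most 0.553 CPM elsewhere, and no count of the Y-linked genes Kdm5d, Uty, Ddx3y and Eif2s3y.

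Of the 9 genes, 7 passed the filter on low counts and were tested with edgeR's quasi-likelihood test, and 3 receptors were called higher in the mandible (adjusted p under 0.05 and at least 2-fold), against 3.88% of all 18114 tested genes. None was called lower, where the background was 1.3%. Fgfr4 and Fgf18 were too sparse to test. At an unadjusted p under 0.05, 5 of the 7 (the 3 receptors, Fgf1 and Fgf2) were higher in the mandible, against 9.18% of all tested genes. None was lower at that p, where the background was 7.25%. Another set of 5, the 3 receptors, Fgf2 and Fgf7, had every mandible library above every femur library, against 12.7% of all tested genes. The median log2 fold change of the 7 was 2.84, beside -0.04 for all tested genes. A gene that is near 0 in the femur can pass the filter through the mandible alone, and 5 of the 7 had at least 10 counts in every library.

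**Figure D1:**
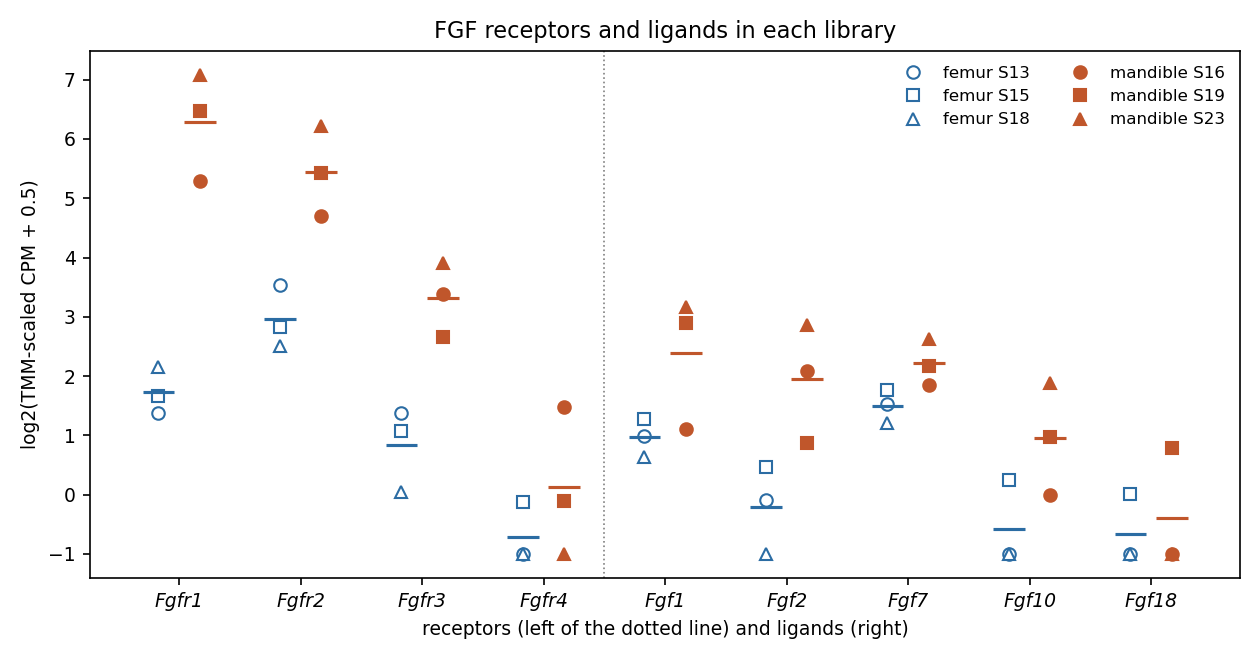
Level of each FGF receptor and ligand in every library, as log2(TMM-scaled CPM + 0.5) on the vertical axis. Open blue symbols are the 3 femur libraries, filled orange symbols the 3 mandible libraries, and the horizontal bars are the means of the plotted values. The mandible symbols of Fgfr1 and Fgfr2 stand clear of the femur symbols, and those of Fgf1 (femur up to 1.94 CPM, mandible from 1.65 CPM) overlap.

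Fgfr1, the receptor best known from mesenchymal cells, showed the largest change of the 3. Its level was 2.1 CPM in femur S13, 2.67 CPM in S15 and 3.93 CPM in S18, and 38.8 CPM in mandible S16, 87.8 CPM in S19 and 135 CPM in S23. Every mandible library was far above every femur library, and the mandible libraries also spread widely among themselves. The means were 2.90 ± 0.938 CPM in the femur libraries and 87.3 ± 48.2 CPM in those of the mandible (SD, n = 3 each), and the log2 fold change was 4.90 (SE 0.49, edgeR adjusted p = 0.00024). Leaving out each library in turn gave log2 fold changes of 4.39 to 5.26, and Fgfr1 was called in each of these fits. With a trend on gene length removed, the log2 fold change was 4.15 and the call was kept.

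Fgfr2, whose epithelial and mesenchymal splice forms are counted together here, was the receptor with the most reads in the femur. Femur libraries S13, S15 and S18 had 11, 6.63 and 5.17 CPM, and mandible libraries S16, S19 and S23 had 25.4, 42.7 and 73.7 CPM. The lowest mandible library was still above the highest femur library. Mean levels were 7.62 ± 3.06 CPM in the femur libraries and 47.3 ± 24.4 CPM in those of the mandible (SD, n = 3 each), with a log2 fold change of 2.63 (SE 0.45, edgeR adjusted p = 0.0057). It was called with any library left out, at log2 fold changes of 2.11 to 3.0, and at a lower 1.87 with the length trend removed (edgeR adjusted p = 0.026). Ctbp2, a transcriptional corepressor gene that shares exonic bases with the long Fgfr2 transcript, had a log2 fold change of 0.44 and was not called (edgeR adjusted p = 0.56).

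Fgfr3, a receptor that restrains the growth of cartilage, was the least certain of the called receptors. It had 2.1, 1.61 and 0.530 CPM in femur S13, S15 and S18, from 38, 35 and 12 counts, and 9.96, 5.79 and 14.6 CPM in mandible S16, S19 and S23, from 199, 122 and 255 counts. The groups did not overlap, and the order of the mandible libraries differed from that of Fgfr1, with S19 the lowest instead of S16. The means were 1.41 ± 0.803 CPM and 10.1 ± 4.4 CPM (SD, n = 3 each), and the log2 fold change was 2.84 (SE 0.71, edgeR adjusted p = 0.042). The call was lost when any 1 of the 6 libraries was left out (edgeR adjusted p = 0.057 to 0.18, log2 fold change 2.42 to 3.24). It was also lost with a trend on gene length removed (log2 fold change 2.39, edgeR adjusted p = 0.072).

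Fgfr4, a receptor best known from liver and embryonic muscle, had 46 counts in mandible S16, 9 in S19 and 0 in S23, and 9 counts in femur S15 and 0 in S13 and S18. The counts of 0 allow up to 0.172 CPM in S23, 0.166 CPM in S13 and 0.133 CPM in S18, and the 46 counts of S16 correspond to 2.30 CPM. Signal of Fgfr4 was therefore present in 1 femur and 2 mandible libraries, and no difference between the sites was detectable at this depth. The exact permutation test (two-sided, on log2 CPM) gave p = 0.2, where 3 against 3 libraries cannot go below 0.1.

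Among the ligands, none was called, although the fitted log2 fold changes of the 4 tested were all above 0. Fgf2, a ligand held in the extracellular matrix, had 0.442, 0.875 and 0 CPM in femur S13, S15 and S18, and 3.75, 1.33 and 6.81 CPM in mandible S16, S19 and S23. Its groups did not overlap, but its log2 fold change of 3.16 had an SE of 1.39 (edgeR adjusted p = 0.28). Nudt6, a gene on the opposite strand that shares 640 exonic bases with Fgf2, had 83, 114 and 139 counts in the femur libraries and 0, 63 and 34 in the mandible libraries. The use of strand in the counting is not given in the sources used here, so reads from the shared bases cannot be assigned to either gene. Of the other genes with shared exonic bases, Gm43439 (Fgf2) had no count, and Gm16159 (Fgfr1) and G630022F23Rik (Fgfr3) had 6 and 8 counts in S15 and none elsewhere.

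Fgf1, the ligand that binds all FGF receptors, had 1.49, 1.94 and 1.06 CPM in femur S13, S15 and S18, and 1.65, 6.98 and 8.52 CPM in mandible S16, S19 and S23. Mandible S16 fell within the femur range, while S19 and S23 lay above it. The log2 fold change was 1.93 (SE 0.83, edgeR adjusted p = 0.26). Fgf7, the keratinocyte growth factor, had 2.38, 2.90 and 1.81 CPM in the femur libraries and 3.10, 3.99 and 5.66 CPM in the mandible libraries, in the same order. These groups did not overlap but lay close together, with a log2 fold change of 0.85 (SE 0.74, edgeR adjusted p = 0.68).

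Fgf10, a mesenchymal ligand needed for limb and lung buds and for the stem cells of the incisor, had a count in every mandible library, at 0.50, 1.47 and 3.20 CPM in S16, S19 and S23. In the femur it had 0.691 CPM in S15 and no count in S13 and S18. Gm16263, on the opposite strand with 123 shared exonic bases, had 40 counts in S23, where Fgf10 had 56, and none elsewhere, so reads from the shared bases cannot be assigned there either. Mandible S16 lay below femur S15, so the groups overlapped, and the log2 fold change was 2.86 (SE 1.91, edgeR adjusted p = 0.55). Without S15 every femur library was at 0, and the fitted log2 fold change became 8.09, which is no bound (edgeR adjusted p = 0.12). Fgf18, a ligand of bone and cartilage, was counted in femur S15 (11 counts) and mandible S19 (26 counts) and in no other library, so a difference was not detectable at this depth.

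The sparse members were set against the number of genes that each library detected. Fgfr4, Fgf10 and Fgf18 had counts in the femur in S15 alone, and S15 and S19 were the libraries in which all 9 genes had a count. Of 13 other FGF ligand genes, 10 had a count in S15, 8 in S19, 3 in S18, 2 each in S13 and S23 and none in S16. The part of the wide detection in S15 in these low counts was not tested, and the calls of Fgfr1 and Fgfr2 were made without S15 as well (log2 fold changes of 4.8 and 2.5). They were also made without S23, the library with Xist, at log2 fold changes of 4.39 and 2.11, and the part of sex in the levels was not tested.

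The mixture of the receptors in each library was compared as well as their sum. Summed over the 4 receptors, the level was 9.63 to 15.2 CPM in the femur libraries and 76.5 to 223 CPM in those of the mandible. Divided by exonic length, Fgfr1 made up 13.5, 21.6 and 40.9% of the receptor level in femur S13, S15 and S18, and 46.6, 63.7 and 59.9% in mandible S16, S19 and S23. Fgfr2 made up 67.9, 51.2 and 51.5% in the femur libraries and 29.2, 29.6 and 31.2% in the mandible libraries. Fgfr2 thus led in every femur library and Fgfr1 in every mandible library, and the ratio of Fgfr1 to Fgfr2 per length was 0.199, 0.421 and 0.796 in the femur against 1.60, 2.15 and 1.92 in the mandible. The shares of Fgfr3 overlapped, at 7.61 to 18.6% in the femur libraries and 5.80 to 16.5% in those of the mandible. As raw read shares with 95% Wilson intervals, which cover counting error only, the nearest libraries were femur S18, with 40.8% Fgfr1 reads (34.5 to 47.5% of 218 reads), and mandible S16, with 50.8% (48.2 to 53.3% of 1529 reads).

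**Figure D2:**
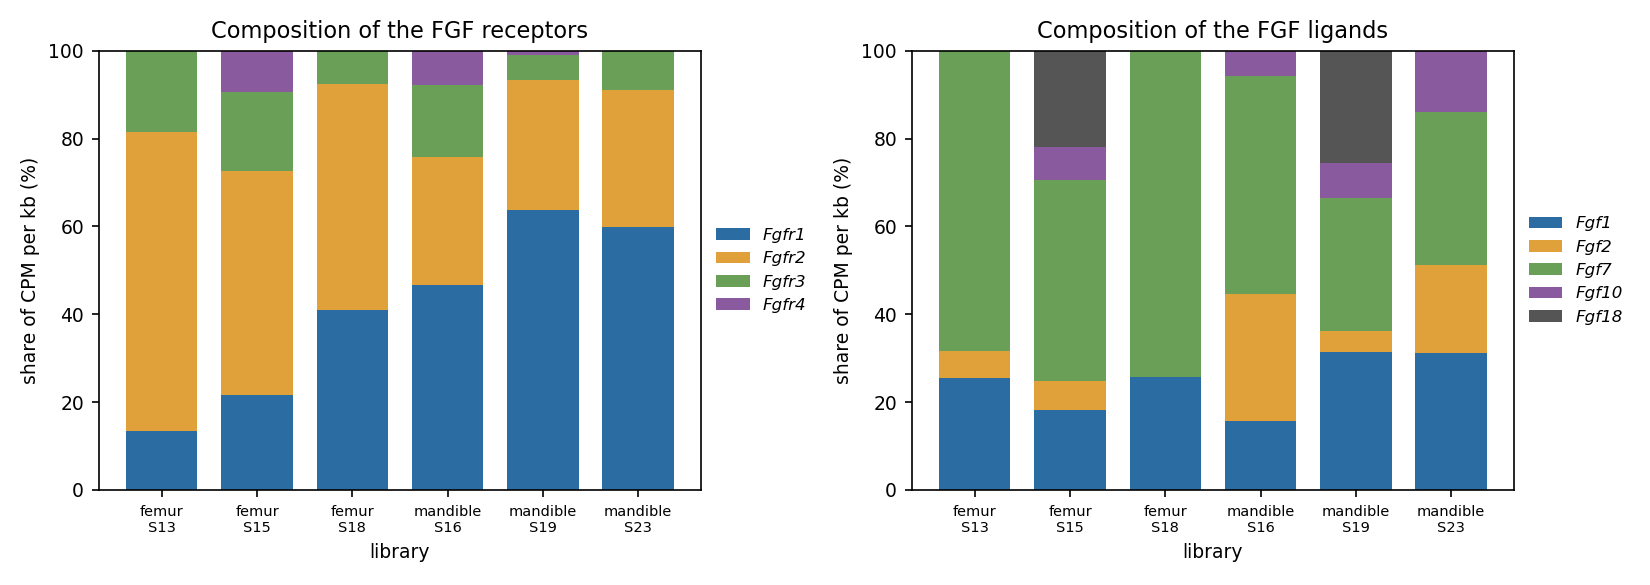
Share of each receptor (left) and each ligand (right) in the summed level of its kind, as percent of CPM per kb of exonic length, with 1 stacked bar per library. Fgfr1 (blue, left) runs from 13.5 to 40.9% in the femur bars and from 46.6 to 63.7% in the mandible bars. Fgf7 (green, right) is the largest segment in the 3 femur bars and in mandible S16 and S23. In S19 it is second, at 30.2% against 31.5% for Fgf1.

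Ordered per length in the femur, Fgfr2 (0.738 ± 0.296 CPM per kb) and Fgf7 (0.728 ± 0.168 CPM per kb) came first and did not differ beyond their spread (SD, n = 3). Fgfr1, Fgf1 and Fgfr3 followed at 0.294 ± 0.0950, 0.274 ± 0.0801 and 0.198 ± 0.112 CPM per kb, again within their spread of each other. In the mandible, Fgfr1 led at 8.84 ± 4.88 CPM per kb, before Fgfr2 at 4.58 ± 2.37, Fgfr3 at 1.41 ± 0.615, Fgf7 at 1.31 ± 0.40 and Fgf1 at 1.05 ± 0.660 CPM per kb. The means of Fgfr1 and Fgfr2 lay within their spread over libraries, although Fgfr1 was above Fgfr2 in each library. The levels of Fgfr3, Fgf7 and Fgf1 did not separate. The summed ligands had 2.87 to 6.91 CPM in the femur libraries and 9.01 to 24.2 CPM in those of the mandible, and Fgf7 made up 45.7 to 74.2% of the ligand level per length in the femur libraries and 30.2 to 49.8% in those of the mandible, which overlap.

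The 6 libraries were also compared for how the genes moved together, as a description over 6 points that carry the difference between the sites. On log2 CPM, Pearson's r was 0.94 between Fgfr1 and Fgfr2, 0.93 between Fgfr2 and Fgfr3, 0.94 between Fgfr3 and Fgf2 and 0.93 between Fgf1 and Fgf7. These were the highest values among the pairs of tested members. The lowest were 0.66 between Fgf1 and Fgf2 and 0.68 between Fgfr1 and Fgf2. Among 13639 other genes, the patterns nearest to Fgfr1 were Pdzd4 and Ankrd50 (r = 0.999 and 0.997), those nearest to Fgfr2 were Zfp827 and Enpp2 (0.997 and 0.996), and those nearest to Fgfr3 were Asb15 and Slc27a6 (0.999 and 0.995). For the ligands they were Nynrin and Syde1 for Fgf1 (0.996 and 0.993), Myo19 and Hecw2 for Fgf2 (both 0.993), Bbs7 and Bmp5 for Fgf7 (0.994 and 0.991) and Ror1 and Snap91 for Fgf10 (both 0.999). With 6 points and so many genes, values this high are found for every member.

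The other genes of the FGF pathway were taken from lists of 86 genes, of which 85 were in the table and 64 were tested. Of these 64, 9 were called higher in the mandible (14.1%, against 3.88% of all tested genes) and 0 lower, with a median log2 fold change of 0.54. Above 0 lay 49 of the 64 (76.6%, against 47.8% of all tested genes), and 19 were higher at an unadjusted p under 0.05, where the background was 9.18%. The called genes sat mainly among the co-receptors and binding proteins at the cell surface, where 7 of 15 tested were called and the median was 2.39. None of 21 adaptor and ERK cascade genes and none of 8 feedback inhibitors was called, with medians of 0.14 and 0.13. Of all tested genes 3.88% were called higher and 1.3% lower, so the lack of calls in lists this short is near the background. Here too a gene near 0 in the femur can pass the filter through the mandible alone. With at least 10 counts required in every library, 50 pathway genes were tested, 7 were called higher and the median was 0.32. Over all genes under that rule, 511 of 12919 were called higher, with a median of -0.04. The called co-receptors Flrt1, Flrt2 and Gpc3 did not pass it.

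**Figure D3:**
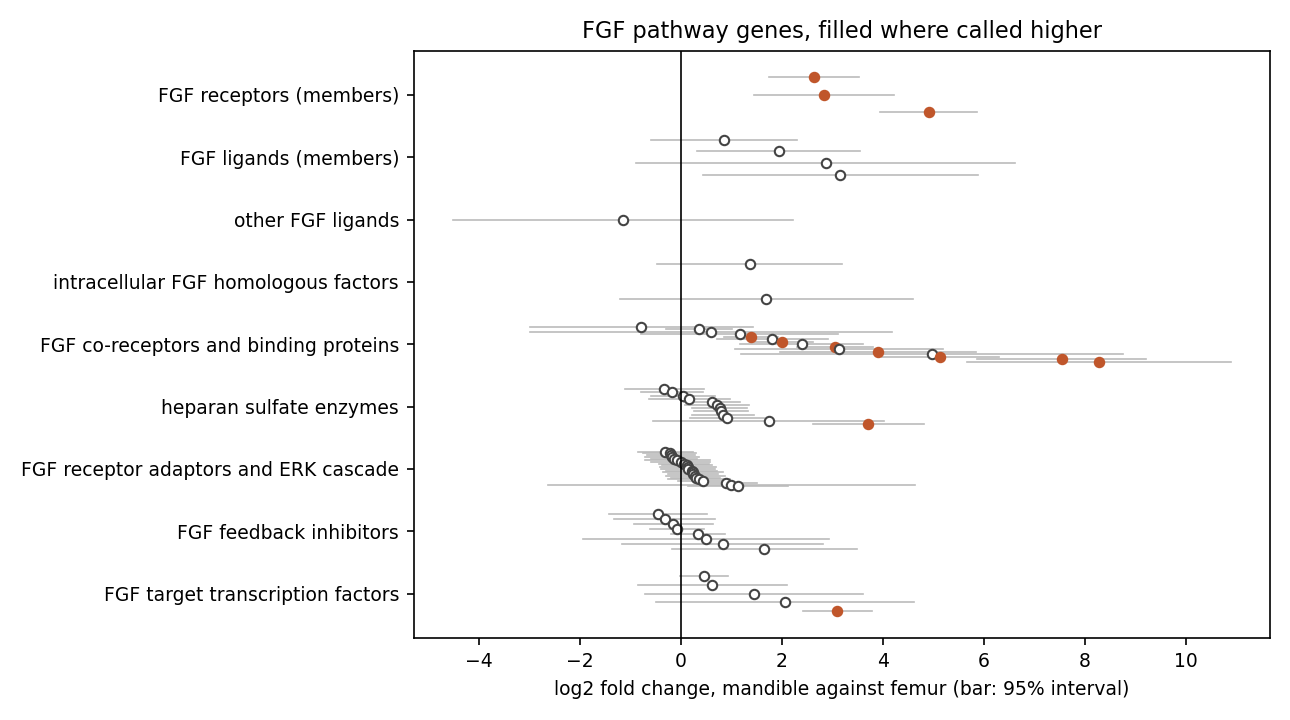
Log2 fold change of each tested gene, mandible against femur, on the horizontal axis, with 1 band per gene list. Bars reach 1.96 SE to each side, a 95% interval for a normal distribution that is narrower than one from the test. Filled orange points are called higher in the mandible, open points are not called. The called points lie among the receptors and co-receptors with Sulf1 and Egr1, while the adaptors and the ERK cascade reach at most 1.13.

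Among the co-receptors, the heparan sulfate proteoglycans that present FGFs to their receptors gave most of the calls. Hspg2, the gene of perlecan in basement membranes, had 2.93, 12.6 and 2.78 CPM in femur S13, S15 and S18 and 180 (S16), 197 (S19) and 269 CPM (S23) in the mandible, with a log2 fold change of 5.14 (SE 0.59, edgeR adjusted p = 0.00048), and 6.19 without S15. Gpc3, a glypican, had 0.0552 to 0.599 CPM in the femur libraries and 18.7, 49.0 and 128 CPM in those of the mandible (log2 fold change 7.54, SE 0.85, edgeR adjusted p = 0.00045), a call that limma-voom did not make (adjusted p = 0.11). The Gpc3 value ran from 6.54 without S23 to 8.16 without S15. Both groups of libraries were far apart for both genes, and the mandible order S16, S19, S23 was that of Fgfr1. The syndecans Sdc1, Sdc3 and Sdc4, which are membrane proteoglycans, rose by log2 fold changes of 1.99, 1.38 and 3.05 (edgeR adjusted p = 0.0042, 0.013 and 0.00087), and the Sdc3 call was lost without S18, S19 or S23 and with the length trend removed (log2 fold change 0.98).

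The fibronectin leucine-rich transmembrane proteins bind FGF receptors, and 2 of their genes were called. Flrt1 had at most 1 count in a femur library and 3.35, 3.75 and 13.5 CPM in mandible S16, S19 and S23. The mandible mean of 6.87 CPM was at least 41.4-fold higher than 3 counts in femur S13, a limit that S23 carried, since without it the mean of 3.55 CPM was at least 21.4-fold higher. The edgeR adjusted p was 0.0041, and the call was lost without S23 (adjusted p = 0.054) and with limma-voom (adjusted p = 0.055). Flrt2 had 0, 1.47 and 1.72 CPM in the femur libraries and 9.51, 12.7 and 26.1 CPM in those of the mandible (log2 fold change 3.9, SE 0.99, edgeR adjusted p = 0.045). The Flrt2 call was lost in 10 of 17 alternatives. Among these were the fits without S15, S16, S18, S19 or S23 (edgeR adjusted p up to 0.20), limma-voom (adjusted p = 0.084) and edgeR without normalization factors (adjusted p = 0.062). Gpc1, the most abundant of the list, had a log2 fold change of 0.35 (SE 0.33, edgeR adjusted p = 0.71). Gpc4 had 2.39 at an edgeR adjusted p of 0.0504.

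Of 12 heparan sulfate enzymes tested, Sulf1 was the only one called. This sulfatase trims the sulfate groups that FGFs bind, and it had 4.09, 6.50 and 1.33 CPM in femur S13, S15 and S18 and 28.7, 57.0 and 69.7 CPM in mandible S16, S19 and S23 (log2 fold change 3.70, SE 0.56, edgeR adjusted p = 0.0029, and 3.09 with the length trend removed). Sulf2, its relative and the most abundant of the list, had a log2 fold change of 0.84 (SE 0.31, edgeR adjusted p = 0.19). Above 0 lay 10 of the 12 enzymes (against 47.8% of all tested genes), with a median of 0.74. Every mandible library was above every femur library for 7 of them, against 12.7% of all tested genes.

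Downstream of the receptors, the adaptors and the ERK cascade reached at most 1.13 in log2 fold change (Gab1, an adaptor protein). For 18 of 21 the interval of 1.96 SE to each side lay within 2-fold. This width is that of a normal distribution, and a 95% interval of the test itself is wider. Cbl, a ubiquitin ligase and the most abundant, had 249 ± 31.7 CPM in the femur libraries and 258 ± 8.95 CPM in those of the mandible (SD, n = 3 each). The feedback inhibitors, whose transcription FGF signals are known to raise, ranged from -0.45 (Spry1) to 1.65 (Il17rd), and Dusp6, an ERK phosphatase, had 70.2 ± 8.57 CPM and 66.5 ± 18.2 CPM. Their lowest edgeR adjusted p was 0.45, and 3 of the 8 intervals of 1.96 SE to each side lay within 2-fold. Of 5 target transcription factors tested, Egr1, an immediate early gene that many stimuli raise, was called, with 18.2, 12.3 and 31.1 CPM in the femur and 178 (S16), 178 (S19) and 171 CPM (S23) in the mandible (log2 fold change 3.10, SE 0.35, edgeR adjusted p = 0.00045). Unlike Fgfr1, Egr1 varied little among the mandible libraries. Ier2, the most abundant target, had a log2 fold change of 0.46 (edgeR adjusted p = 0.41), and none of Etv1, Etv5 and Fosl1 was called. All 5 targets lay above 0 (against 47.8% of all tested genes), with a median of 1.45, and 1.04 without Egr1. Of the 5, 4 had every mandible library above every femur library, against 12.7% of all tested genes.

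Ligands outside the 9 members were near the limit of detection. Fgf3 was the only one of 13 tested, at 0.322 to 1.93 CPM in the femur libraries and 0 to 0.801 CPM in those of the mandible (log2 fold change -1.16, SE 1.72, edgeR adjusted p = 0.84). The intracellular FGF homologous factors Fgf11 and Fgf13, which do not bind FGF receptors in the usual way, were tested and not called, and Fgf13 was the more abundant, with 1.27 ± 0.216 CPM in the femur libraries and 3.25 ± 1.47 CPM in those of the mandible (SD, n = 3 each).

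Markers of some other cell types were higher in the mandible, as the receptors were, and those of others were not. In the mandible, 16 of 18 mesenchymal and osteoblast markers were called higher, with a summed level of 208 to 266 CPM in the femur libraries and 9880 to 16713 CPM in those of the mandible, led by Col1a1 (32.2 ± 11.5 against 5801 ± 1160 CPM, SD, n = 3 each). Of 12 dental and oral epithelium markers tested, 7 were called higher, with sums of 11 to 12.7 and 5789 to 11346 CPM, led by the enamel gene Amelx (0.217 ± 0.10 against 4386 ± 1830 CPM), while the general epithelial markers Epcam and Cdh1 were not called (log2 fold changes of -0.48 and 0.65). All 7 skeletal muscle markers were called higher, with sums of 3.14 to 17.3 and 1103 to 3642 CPM, led by Acta1. Among 8 mural cell markers 3 were called higher, led by Myh11 (sums of 8.22 to 22.5 and 57.2 to 179 CPM), and of 2 chondrocyte markers tested Col2a1 was called (sums of 0.177 to 12.4 and 31.8 to 92.3 CPM), while Matn3 and Snorc were at 0 in the mandible. No endothelial marker was called higher and Esam was called lower (sums of 57.2 to 66.1 and 38.5 to 58.4 CPM), and 4 of 5 megakaryocyte and platelet markers, led by Itga2b, were called lower (529 to 850 and 72.0 to 104 CPM). In bulk samples, more cells of a type and more RNA per cell cannot be told apart, and the part of these markers in the receptor levels was not tested.

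Within the mandible, the receptors and the marker sums were set side by side without a test. From S16 to S23, Fgfr1 differed 3.48-fold and Fgfr2 2.90-fold, beside 3.13-fold for the mural sum, 2.90-fold for the chondrocyte sum, 1.96-fold for the epithelial sum and 1.69-fold for the mesenchymal sum. Fgfr3 differed 1.46-fold over the same libraries, beside 1.51-fold for the skeletal muscle sum. In S19 the level relative to S16 was 2.26 for Fgfr1, 1.68 for Fgfr2, 0.582 for Fgfr3 and 0.354 for Fgf2. The marker sums had 2.04 (mural), 1.30 (mesenchymal), 1.27 (epithelial), 1.08 (chondrocyte) and 0.456 (skeletal muscle) in S19 relative to S16. The monocyte sum was 1.23 in S19 and 0.696 in S23 relative to S16. Relative to S16, the endothelial sum was 0.792 in S19 and 0.659 in S23, and the megakaryocyte and platelet sum 0.689 and 0.933.

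**Figure D4:**
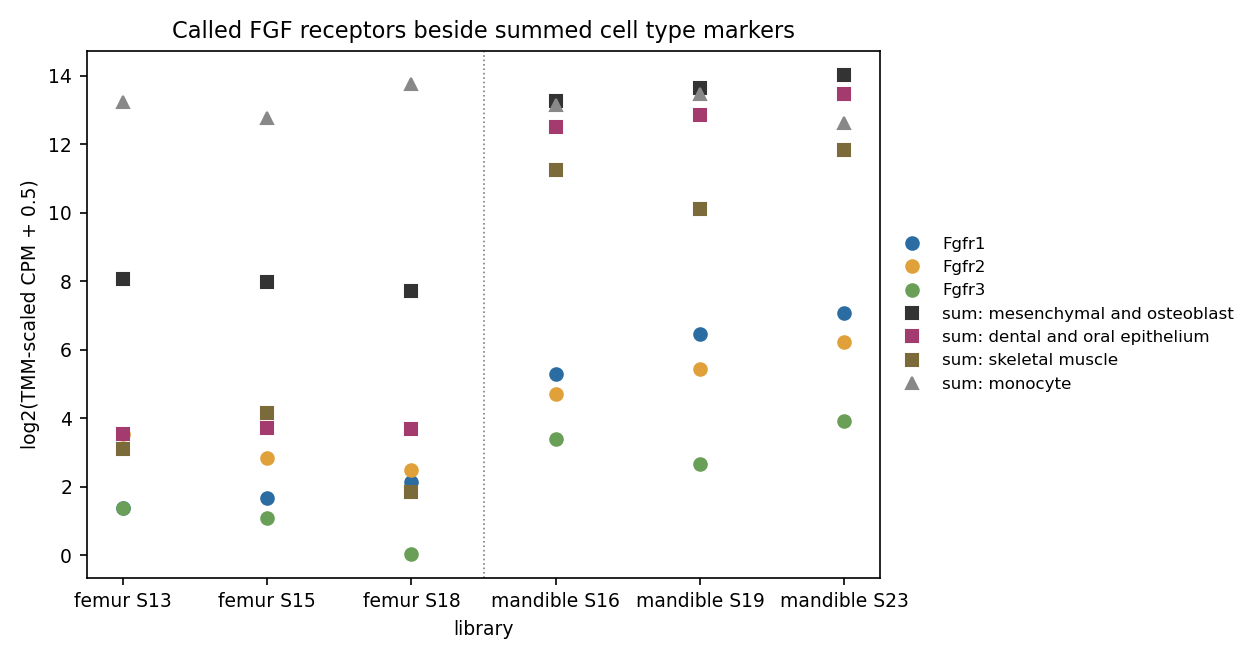
Levels of the 3 called receptors (circles) beside the summed levels of 4 marker lists (squares and triangles) in each library, as log2(TMM-scaled CPM + 0.5). Femur libraries lie left of the dotted line and mandible libraries right. The mesenchymal sum moves from 208 to 266 CPM in the femur to 9880 to 16713 CPM in the mandible, while the monocyte sum lies between 6330 and 13873 CPM in all 6.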

How the data were processed

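Monocyte RNA of 6 libraries was measured by bulk RNA-seq. The authors trimmed paired-end reads, aligned them with HISAT2 2.1.0 to GRCm38 and assigned them to genes with featureCounts. The deposited table holds their unnormalized counts. Strand use is not given in the sources used here, and 2979 of the 52029 genes shared with GENCODE M21 had a deposited interval inside the M21 gene, so positions came from M21 by identifier. Libraries were grouped by the site in their labels. Counts were filtered (filterByExpr, minimum count 10, minimum total 15), scaled by TMM and tested in R 4.3.3 with edgeR 4.0.16 (quasi-likelihood, no covariates, prior count 0.125, Benjamini-Hochberg over 18114 genes), and genes were called at an adjusted p under 0.05 and at least 2-fold. The steps were tested on simulated data. Plotted log2 CPM used a pseudocount of 0.5. Alternatives were DESeq2 1.42.0, limma-voom 3.58.1, other scalings, filters and thresholds, a loess on gene length (span 0.4), and each library left out. Gene length here means the exonic length given with the counts. Of listed genes the text names the members, called pathway genes, the most abundant gene of each list, the 2 genes most correlated with each member (mean of at least 1 CPM), overlapping genes with shared exons and the leading called marker. Other genes were chosen after their values were seen. The members and lists were chosen with earlier results of these data known. A gene of the pathway lists is not reported here by name.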

Additional observations from a re-analysis of the deposited data

How the results depend on the processing

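Among 18 alternatives the count of members called higher ranged from 2 to 3 and that of other pathway genes called higher from 6 to 12, none was called lower, and no log2 fold change of the 7 tested members or the 9 called pathway genes changed sign. With 1 library left out, 2 members and 6 (without S23) to 9 pathway genes were called higher. Fgfr1 (log2 fold change 4.15 to 5.26) and Fgfr2 (1.87 to 3.0), lowest with the length trend removed, were called in every alternative, and Fgfr3 in 8 of 18. Over all genes, 938 were called, beside 1548 with DESeq2, 1590 with every gene with a count tested, 445 at an adjusted p under 0.01, and 434 to 1565 with 1 library left out, the highest without S15. The share of calls that were higher was 74.8%, and ran from 61.2% without S15 (957 higher, 608 lower) to 87.8% without S13 (447 higher, 62 lower). It was 80.2% without normalization factors, which moved the median of all genes from -0.04 to 0.06. Fgfr2 took 30.0% of the mandible receptor level per length and 32.5% of reads without it. No paired analysis was possible because no replicate number is shared between the groups. At this depth Fgfr4 and Fgf18 could not be compared between the sites.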
